A study of Mus musculus with 2 samples.

Results

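Eph receptors with their ephrin ligands, Slits with their Robo receptors, and netrins with Dcc and the Unc5 receptors are 3 of the classical systems of axon guidance in the developing nervous system. Values for 38 genes of these families, chosen by gene symbol, are described here out of 55536 genes in the gene tables. They are 9 EphA and 5 EphB receptors, 5 ephrin-A and 3 ephrin-B ligands, 3 Slits, 4 Robos, the netrins Ntn1 and Ntn4, the netrin-G genes Ntng1 and Ntng2, Dcc and 4 Unc5 receptors. Total RNA was sequenced from left cerebral cortex taken from males of B6CASTF1/J, first-generation hybrids of C57BL/6 and CAST parents, aged 14 days. No treatment, transgene or allele is named. Both libraries, replicates 1 and 2, belong to the same group, so there is no other condition to set them against and no test was possible. Each started from 300 ng of RNA with ERCC spike-ins added, synthetic RNAs of known amount, in a profile meant for libraries with ribosomal RNA reduced. A separate biosample is named for each library, but the donor entry is shared, and the labels mention 3 males without stating whether tissue was pooled. The spread between the libraries may therefore be technical.

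Eph receptors are the largest family of receptor tyrosine kinases. They bind ephrins on the surface of neighbouring cells, ephrin-As held by a lipid anchor and ephrin-Bs spanning the membrane, so that signals can run into both cells; in the cortex they are known for sorting axons into maps and later for shaping dendritic spines and synapses. Slits are secreted repellents read by Robo receptors, and Ntn1 is a laminin-related cue that attracts axons through Dcc and repels them through Unc5 receptors. Netrin-Gs are membrane-anchored relatives that bind NGL proteins across the synapse instead of Dcc.

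Here and below, where 2 values are given without a name, replicate 1 stands before replicate 2. The libraries held 28263225 and 30862813 expected counts in genes. Defining markers of cerebral cortex were present in both, with 7 of 7 cortical excitatory neuron markers at TPM 1 in both libraries and summed levels of 1624 and 1898 TPM. TPM is a level per length, scaled to the whole library, and is the scale on which genes are compared below. The libraries stood apart in markers of other regions and layers. All 10 striatal markers were lower in replicate 2 than in replicate 1 (median log2 difference, replicate 2 minus replicate 1, of -1.95; summed levels 604 and 172 TPM). Of the deep-layer markers 7 of 9 were lower (median -0.36, 243 and 162 TPM), and all 5 myelinating oligodendrocyte markers were lower (median -0.64, 971 and 629 TPM). The deep-layer markers past 1.5-fold lower were Foxp2 (-1.35), Bcl11b (-1.08), Syt6 (-1.05) and Crym (-0.86), while Fezf2 (0.17) and Etv1 (0.19) were higher. Whether the deep-layer markers differed apart from the striatal ones was not tested. All 5 upper-layer markers were higher in replicate 2 (median 0.41, 237 and 323 TPM), as were 5 of 7 choroid plexus markers (median 0.68, 36.1 and 127 TPM). Most of the choroid plexus sum was Ttr (30.4 and 118 TPM). Only 3 of its 7 markers reached TPM 1 in both libraries, and 2 were lower in replicate 2, Clic6 by -1.17. The remaining lists had medians of -0.43 (thalamus), -0.28 (interneuron), -0.22 (oligodendrocyte precursor), -0.07 (hippocampus), 0.01 (astrocyte), 0.08 (microglia), 0.12 (fibroblast), 0.13 (endothelial and pan-neuronal), 0.17 (mural) and 0.28 (cortical excitatory). Single members departed from these medians. Past 1.5-fold, Vip (0.72) and Pvalb (0.60) of the interneuron list were higher in replicate 2 and none was lower. In the thalamus list Lef1 (0.68) and Ramp3 (0.61) were higher, and Gbx2 (15 and 0 counts) was lower. Cerebellar markers summed to 0.57 and 1.96 TPM. No marker of any list was at 0 in both libraries. With bulk tissue, fewer cells of a type and less RNA per cell cannot be told apart.

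Nearly all of the guidance genes were detected at 14 days. A TPM of at least 1 in both libraries was reached by 36 of the 38 genes (94.7%), against 58.8% of 22028 annotated protein-coding genes; Epha1 and Efna4 stayed below it. The median of these 36 genes was 16.2 TPM in replicate 1 and 17.4 TPM in replicate 2, and that of all protein-coding genes at TPM 1 was 16.0 and 15.9 TPM. Mean TPM was at least 30 for 11 guidance genes, between 10 and 30 for 14, between 1 and 10 for 11 and below 1 for 2. The SD over the libraries had a median of 9.26% of the mean.

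In the order of mean levels, Epha4, Robo2, Epha5, Ephb6 and Ntng2 came first, followed by Efnb3, Robo1, Epha7, Efnb2, Epha6 and Unc5a. Of the 37 pairs of neighbours in the order, 26 overlapped in their ranges over the libraries and so did not differ beyond their spread. The 11 steps without overlap were Robo2 to Epha5, Unc5a to Slit3, Slit3 to Unc5d, Ephb1 to Slit2, Dcc to Epha3, Epha3 to Efnb1, Efna2 to Ntn1, Unc5b to Ephb4, Ephb4 to Efna1, Efna1 to Epha2 and Epha2 to Epha1.

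**Figure D1:**
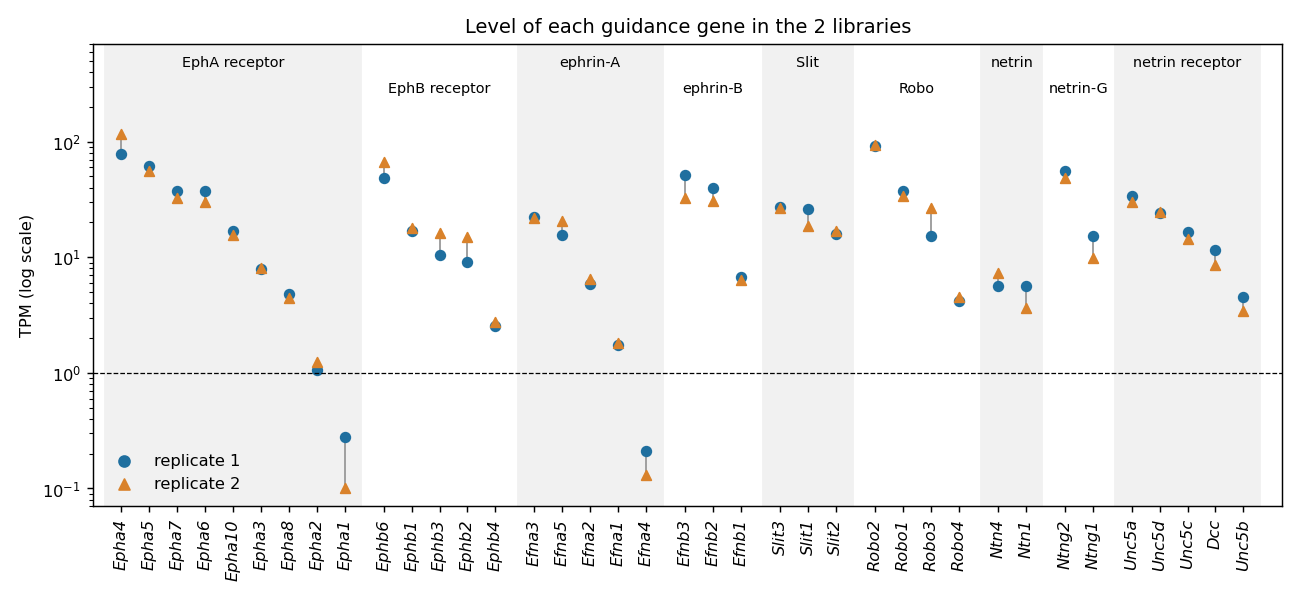
TPM of the 38 guidance genes on a log axis, grouped by family and ordered by mean within each, with a circle for replicate 1, a triangle for replicate 2 and a grey line joining them; the dashed line marks TPM 1. Epha4 and Robo2 sit highest at means of 97.1 and 93.2 TPM, and Epha1 and Efna4 are below the dashed line in both libraries.

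Among the EphA receptors, which bind ephrin-As, Epha4 had the highest mean. Epha4 also binds ephrin-Bs and is known from dendritic spines and from axon sorting at the midline. Its gene lies at chr1:77367185-77515088 on the minus strand (mm10). It had 77.9 TPM in replicate 1 and 116 TPM in replicate 2 (97.1 ± 27.3, SD, n = 2; the same error is given below), or 31.7% and 44.1% of the summed TPM of the 9 EphA genes. Epha5, a receptor found mainly in neurons, followed with 61.7 and 55.4 TPM (58.5 ± 4.44). Epha7, known from thalamocortical maps, had 37.7 and 32.6 TPM (35.2 ± 3.63). Epha6, also an ephrin-A receptor, had 37.5 and 30.3 TPM (33.9 ± 5.11), a range that overlapped that of Epha7. Replicate 2 was the higher library for Epha4 and the lower one for the other 3, so the step between them varied. The log2 ratio of Epha4 over Epha5 was 0.34 in replicate 1 and 1.07 in replicate 2 (0.70 ± 0.52), and that of Epha4 over Epha7 was 1.04 and 1.83 (1.44 ± 0.56). Epha5 lay above Epha6 by 0.71 and 0.87 (0.79 ± 0.11).

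Epha10, which in mammals lacks kinase activity, had 16.8 and 15.7 TPM (16.2 ± 0.81). Its log2 ratio over Epha4 was -2.21 and -2.89 (-2.55 ± 0.48). Epha3 had 7.97 and 8.14 TPM (8.06 ± 0.12) and Epha8 4.83 and 4.46 TPM (4.65 ± 0.26); both are ephrin-A receptors studied mainly in the visual system and midbrain. Epha2, better known from epithelia, was near the threshold at 1.05 and 1.23 TPM (1.14 ± 0.13). Epha1, likewise an epithelial receptor, had 14 and 4 counts, or 0.28 and 0.10 TPM. It shares 236 exon bases on the opposite strand with Zyx (22.7 and 23.6 TPM), and since the use of strand in counting is not given, its few counts are uncertain.

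Transcript annotation split the EphA genes. Percentages below are each transcript's share of its gene's abundance in the first of 2 deposited transcript tables. Epha8 has 1 annotated transcript. For Epha7 no transcript passed 50%, and a short coding sequence was in front. Epha7-202 (coding length 1830 nt) took 40.7% in replicate 1 and 31.6% in replicate 2, Epha7-204 (1878 nt) 18.0% and 29.8%, and Epha7-201, with the longest coding sequence of 2994 nt, 25.5% and 23.9%. The shares of Epha7-202 and Epha7-204 moved in opposite directions between the libraries, while their sum was 58.6% and 61.4% (52.2% and 57.3% by the second transcript table). Forms of mouse EphA7 cut short of the kinase domain are known from the literature; which domains these transcripts encode was not examined.

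Epha5 has more annotated transcripts than any other EphA gene, 11 in all, of which Epha5-206 was at 0 in both libraries. Epha5-207, annotated as a retained intron, led in mean and took 20.5% and 17.9%. The coding transcripts Epha5-201, Epha5-204 and Epha5-202 took 17.2% and 18.2%, 17.3% and 16.5%, and 14.7% and 17.1%. In replicate 2 Epha5-201 was thus just in front. By the second table Epha5-204 led (24.1% and 19.0%). Retained-intron transcripts made up 30.5% and 30.1% of Epha5 and 25.7% and 24.5% of Epha6. For Epha2 the tables differed. Epha2-201, coding for 2931 nt, took 88.2% and 90.2% in the first table and 24.1% and 43.1% in the second, where the noncoding Epha2-204 led.

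Of the EphB receptors, which bind ephrin-Bs, Ephb6 was highest. Like Epha10 it has lost kinase activity. The gene spans chr6:41605482-41620509 on the plus strand. It had 48.1 TPM in replicate 1 and 66.3 TPM in replicate 2 (57.2 ± 12.9), and its share of the summed EphB level was nearly the same in both libraries, 55.2% and 56.2%. Ephb1, which steers axons at the optic chiasm, had 17.0 and 17.8 TPM (17.4 ± 0.59). Ephb3 had 10.4 and 16.2 TPM (13.3 ± 4.04). Ephb2, which acts with Ephb3 in commissural axons and also clusters glutamate receptors at synapses, had 9.07 and 14.9 TPM (11.99 ± 4.12). Both lay below Ephb1 in each library, but closer to it in replicate 2. The log2 ratio of Ephb2 over Ephb1 was -0.90 and -0.26 (-0.58 ± 0.45), and that of Ephb6 over Ephb2 was 2.39 and 2.15 (2.27 ± 0.17). Ephb4, the ephrin-B2 receptor of venous endothelium, was lowest at 2.52 and 2.74 TPM (2.63 ± 0.16). The 5 endothelial markers summed to 84.6 and 86.8 TPM.

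The transcripts of Ephb2 with the same coding length of 2961 nt, Ephb2-201 and Ephb2-203, took 46.5% and 37.98%, and 33.0% and 29.2%. Ephb2-202 (2958 nt) took 15.8% and 16.8%, and no transcript of Ephb2 passed 50% in either library.

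The ephrin-A ligands were led by Efna3 and Efna5. Efna3, known from astrocytes at synapses, had 22.3 and 22.1 TPM (22.2 ± 0.18). Efna5, known for its gradients that place axons in sensory maps, had 15.7 and 20.5 TPM (18.1 ± 3.34). The log2 ratio of Efna5 over Efna3 was -0.50 and -0.11 (-0.30 ± 0.28); on expected counts not divided by length the direction turned (0.36). Efna2, which acts with Efna5 in sensory maps, had 5.86 and 6.53 TPM (6.20 ± 0.47). Efna1, a ligand of Epha2 also made by vessels, had 1.75 and 1.82 TPM (1.79 ± 0.05). Efna4 had 6 and 4 counts, 0.21 and 0.13 TPM. Efna1, Efna3 and Efna4 are neighbours on chromosome 3 with gaps of 32.8 kb and 10.4 kb, so the highest and the lowest gene of the family stand side by side.

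Both leading ephrin-As carry a coding exon that some of their transcripts include and others skip, in each case with a length divisible by 3. They are shown because the included share differed between the libraries; these and the other exons below were picked after their values were seen. Sequences are GENCODE M21 transcript sequence on mm10, written 5′ to 3′ on the strand of the gene. The first exon has 81 bases at chr17:62613316-62613396 on the minus strand, and the second has 78 bases at chr3:89315808-89315885, also on the minus strand.
Efna5 exon: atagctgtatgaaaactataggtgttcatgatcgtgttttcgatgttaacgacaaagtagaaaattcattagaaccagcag
Efna3 exon: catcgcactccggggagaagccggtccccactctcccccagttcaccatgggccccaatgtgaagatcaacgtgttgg
The Efna5 exon was in 57.3% of the abundance in replicate 1 and in 78.4% in replicate 2 (67.8 ± 14.9), where the whole, here and for the exons below, is the abundance of the transcripts that include or skip the exon. By the second table it was in 66.6% and 78.9%. The Efna3 exon was in 80.6% and 95.5% (88.0 ± 10.5), and by the second table in 74.4% and 88.7%. Replicate 2 was the higher library for both exons in both tables. Each share rests on 1 transcript with the exon and 1 without it, of unlike length. These are Efna5-201 (4032 nt) and Efna5-202 (643 nt), and Efna3-201 (2363 nt) and Efna3-203 (742 nt). Whether the shares reflect use of the exon or assignment of reads to the longer transcript was not tested.

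Of the ephrin-B ligands, Efnb3 and Efnb2 ran the other way and were lower in replicate 2. Efnb3, the midline repellent of corticospinal axons (chr11:69554092-69560205, minus strand), had 51.8 TPM in replicate 1 and 32.7 TPM in replicate 2 (42.3 ± 13.5). Efnb2, which also marks arteries, had 39.5 and 30.5 TPM (35.0 ± 6.39). Their ranges overlapped. Within each library Efnb3 was the higher (log2 ratio over Efnb2 0.39 and 0.10, 0.25 ± 0.20), but not on expected counts not divided by length (-0.10). Efnb1, the X-linked member whose loss in humans causes a craniofacial syndrome, had 6.72 and 6.30 TPM (6.51 ± 0.30). Efnb3 has 1 annotated transcript, and Efnb1-201 took 91.6% and 93.2% of its gene.

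Summed over the members of each family, receptors exceeded ligands in 3 of the 4 systems. The 9 EphA genes summed to 246 and 264 TPM, against 45.9 and 51.0 TPM for the 5 ephrin-As, a log2 ratio of 2.42 and 2.37 (2.40 ± 0.03). Robo genes summed to 149 and 160 TPM, against 69.0 and 62.2 TPM for Slits (1.11 and 1.36, 1.24 ± 0.18). That Robo sum includes Robo3 (15.3 and 26.8 TPM), which binds Nell2 in place of Slits, and the endothelial Robo4 (4.22 and 4.56 TPM). Dcc with the Unc5 genes summed to 90.7 and 81.4 TPM, against 11.3 and 11.0 TPM for Ntn1 with Ntn4 (3.00 and 2.89, 2.95 ± 0.08). For EphB and ephrin-B no direction held. The 5 EphB genes summed to 87.1 TPM in replicate 1 and 118 TPM in replicate 2, against 98.1 and 69.5 TPM for the 3 ephrin-Bs. The log2 ratio was thus -0.17 in replicate 1 and 0.76 in replicate 2, with a mean of 0.30 below its SD of 0.66. Ephb2 also binds Efna5 and Epha4 binds ephrin-Bs, so these sums leave out known cross-binding. The netrin sum leaves out Ntn3 (6.48 and 5.0 TPM), Ntn5 (0.56 and 0.69 TPM) and Flrt2 (29.05 and 32.01 TPM), a repellent for Unc5d. Ratios of single genes, given with each family, were taken in 17 pairs. The gene named first exceeded the other in 10, was below it in 6, and in 1 no direction held.

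**Figure D2:**
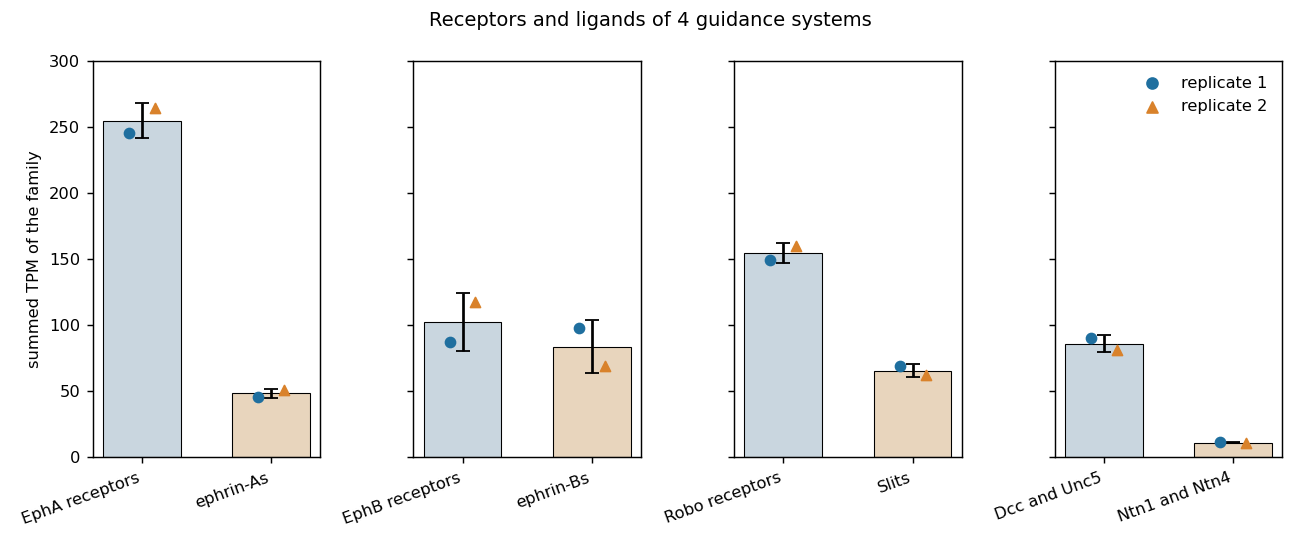
Summed TPM of receptors (left bar of each panel) and ligands (right bar) in 4 guidance systems; bars are means of the 2 libraries, error bars SD, the circle replicate 1 and the triangle replicate 2. EphA, Robo and netrin receptors stand above the ligands summed here in both libraries, while EphB receptors (87.1 and 118 TPM) and ephrin-Bs (98.1 and 69.5 TPM) change places.

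Of the Robo receptors, Robo2 stood far above the rest. Robo2 (chr16:73891839-74411825, minus strand) had 91.9 and 94.5 TPM (93.2 ± 1.83) and Robo1, the other main Slit receptor of forebrain axons, 37.7 and 34.2 TPM (35.9 ± 2.48). The log2 ratio of Robo2 over Robo1 was 1.28 and 1.47 (1.37 ± 0.13). Robo3, a divergent member that in mammals guides commissural axons and binds Nell2 in place of Slits, had 15.3 TPM in replicate 1 and 26.8 TPM in replicate 2 (21.1 ± 8.12). Its SD of 38.5% of the mean was the largest among guidance genes at TPM 1. Robo4, the endothelial Robo, had 4.22 and 4.56 TPM (4.39 ± 0.24). Robo3 and Robo4 lie on opposite strands of chromosome 9 with only 0.553 kb between them, and the log2 ratio of Robo4 over Robo3 was -1.84 and -2.53 (-2.18 ± 0.49).

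No transcript held over 50% of a Robo gene. In Robo2, Robo2-202 (coding length 4131 nt) took 27.5% and 32.6%, Robo2-211 (3196 nt) 26.1% and 22.1%, and Robo2-210 (4536 nt) 12.5% and 13.3%. In Robo1, Robo1-206 (4865 nt) led with 43.8% and 36.6%; by the second table the short fragment Robo1-205, of 546 nt, took more of replicate 2 (43.3%). Robo3 had the lowest share in coding transcripts of the guidance genes at TPM 1. Coding transcripts together took 46.0% and 46.7%, of which Robo3-202 took 46.0% and 38.8%, and retained-intron transcripts took 36.1% and 37.7%. The total RNA assay also reads unspliced RNA; the part of such reads in these shares was not tested. For Robo4 the transcripts changed between libraries. Robo4-204, annotated as subject to nonsense-mediated decay, took 31.4% in replicate 1 and was listed at 0 in replicate 2, and Robo4-203 was listed at 0 in replicate 1 and took 27.5% in replicate 2. By the second table Robo4-204 led the gene with 53.5% and 27.2%, and Robo4-203 took 4.06% and 23.9%. At 295 and 318 counts for the whole gene, shared among 6 transcripts, these shares carry little weight.

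Among the Slit ligands, Slit3 had 27.0 and 26.7 TPM (26.8 ± 0.21), Slit1 26.1 and 18.6 TPM (22.4 ± 5.28) and Slit2 15.9 and 16.9 TPM (16.4 ± 0.69). All 3 are repellents read by Robo1 and Robo2. Slit3 lay above Slit2 by a log2 ratio of 0.76 and 0.66 (0.71 ± 0.07). Slit1 over Slit2 was 0.71 in replicate 1 but 0.14 in replicate 2 (0.43 ± 0.40). On expected counts not divided by length these ratios were 0.00061 for Slit3 and 0.0051 for Slit1, so the order of the Slits rests on the lengths used. Slit1 was split between Slit1-201 (50.6% and 47.7%) and Slit1-203 (43.8% and 47.7%), and the second table put Slit1-203 first in mean (50.9%). Slit2-216 took 29.4% and 43.8%, the most of the 23 annotated Slit2 transcripts.

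Slit2 has small alternative coding exons, again of lengths divisible by 3. They are printed as examples of in-frame exons, since they differ in use within the same gene. All lie on the plus strand of chromosome 5, at chr5:48191003-48191014 (12 bases), chr5:48220967-48220990 (24 bases) and chr5:48263641-48263667 (27 bases).
Slit2 exon of 12 bases: atgaggaagaag
Slit2 exon of 24 bases: ctaaagaacagtatttcattccag
Slit2 exon of 27 bases: ctgctaatctgaatgaggtggaaaaag
Of the abundance in transcripts that include or skip it, 68.3% in replicate 1 and 70.2% in replicate 2 held the 12-base exon. The 24-base exon was included in 27.3% and 14.6%, and by the second table in 35.4% and 23.0%. The 27-base exon was in 12.3% and 12.4%, and in 20.2% and 9.05% by the second table. The order of the 3 exons was the same in both libraries and both tables.

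The netrin ligands Ntn1 and Ntn4 were low. Ntn1 had 5.69 TPM in replicate 1 and 3.62 TPM in replicate 2 (4.66 ± 1.46), and Ntn4, a basement membrane netrin, 5.61 and 7.35 TPM (6.48 ± 1.23). Their ratio had no direction, at 0.02 and -1.002 on the log2 scale (-0.49 ± 0.72). Ntn1-201 took 100% and 83.2% of Ntn1.

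The netrin-G genes were higher, with Ntng2 (chr2:29194541-29253005, minus strand) at 55.4 and 48.8 TPM (52.1 ± 4.67) and Ntng1 at 15.1 and 9.82 TPM (12.5 ± 3.76). The log2 ratio of Ntng1 over Ntng2 was -1.87 and -2.30 (-2.08 ± 0.31). The level of Ntng2 is uncertain, since 558 of its exon bases are shared on the same strand with 6530402F18Rik (20.6 and 18.5 TPM). Ntng2-211, annotated as subject to nonsense-mediated decay, took 44.2% and 45.5% of Ntng2, about as much as the coding Ntng2-204 (44.3% and 41.8%), and coding transcripts together took 48.7% and 47.3%. Ntng1 has 13 annotated transcripts, of which Ntng1-201, Ntng1-203, Ntng1-204, Ntng1-205 and Ntng1-207 were at 0 in both libraries. Ntng1-206, annotated as subject to nonsense-mediated decay, led in replicate 1 and the coding Ntng1-210 in replicate 2, in both tables. In the first table Ntng1-206 took 27.5% and 25.4% and Ntng1-210 25.8% and 33.7%. By the second table Ntng1-206 took 32.4% and 32.5% and Ntng1-210 26.9% and 35.6%. An exon of 135 bases at chr3:109827627-109827761 on the minus strand was in 17.4% of replicate 1 and 7.19% of replicate 2 (16.2% and 6.92% by the second table), a difference in the same direction in both tables. Exons of 60 and 66 bases were in 27.5% and 35.3%, and in 30.7% and 36.96%.

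Netrin receptors were led by Unc5a (33.98 and 30.04 TPM, 32.01 ± 2.79) and Unc5d (24.1 and 24.8 TPM, 24.5 ± 0.54), which are receptors for repulsion by netrins and, for Unc5d, for repulsion by shed Flrt2. The log2 ratio of Unc5a over Unc5d was 0.50 and 0.27 (0.38 ± 0.16), but -0.50 on expected counts not divided by length, since Unc5d transcripts are the longer. Unc5c, likewise a receptor for repulsion, had 16.5 and 14.4 TPM (15.5 ± 1.48). Dcc, the receptor for attraction, had 11.6 and 8.61 TPM (10.1 ± 2.11), and Unc5b, also an endothelial receptor, 4.52 and 3.46 TPM (3.99 ± 0.75). Unc5c exceeded Unc5b by 1.85 and 2.03 (1.94 ± 0.13). Neo1, the Dcc relative that also binds repulsive guidance molecules, had 45.9 and 46.7 TPM, and the log2 ratio of Dcc over Neo1 was -1.98 and -2.43 (-2.20 ± 0.32).

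Unc5a and Unc5d share a coding exon of 168 bases that was mostly skipped in the first and mostly included in the second. It lies at chr13:54997193-54997360 on the plus strand in Unc5a and at chr8:28760725-28760892 on the minus strand in Unc5d. The sequences are shown to compare the exons; capitals mark the bases at which they differ.
Unc5a exon: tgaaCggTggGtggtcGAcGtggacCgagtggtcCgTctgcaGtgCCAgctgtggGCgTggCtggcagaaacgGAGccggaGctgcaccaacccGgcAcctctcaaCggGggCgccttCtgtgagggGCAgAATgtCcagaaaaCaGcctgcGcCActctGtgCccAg
Unc5d exon: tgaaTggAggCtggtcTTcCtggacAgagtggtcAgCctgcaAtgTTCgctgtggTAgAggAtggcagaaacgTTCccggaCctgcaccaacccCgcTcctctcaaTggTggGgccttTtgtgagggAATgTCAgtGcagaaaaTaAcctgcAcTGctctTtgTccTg
Aligned without gaps, 126 of the 168 bases were identical and 42 differed, an identity of 75%. Outside the cell, Unc5 receptors hold immunoglobulin and thrombospondin repeats; which of these the exon encodes was not examined. The Unc5a exon was included in 11.2% of the abundance in replicate 1 and 13.1% in replicate 2 (12.1 ± 1.35), and the Unc5d exon in 84.2% and 80.1% (82.1 ± 2.96). By the second table the shares were 17.8% and 22.4% in Unc5a and 77.7% and 70.4% in Unc5d. The genes' ranges did not overlap in either table. An exon of 57 bases of Unc5c, at chr3:141786857-141786913 on the plus strand, was in 34.4% and 25.0% (37.7% and 30.3% by the second table).
Unc5c exon: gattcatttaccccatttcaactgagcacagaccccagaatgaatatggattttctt
Retained-intron transcripts took 27.8% and 26.4% of Unc5c.

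**Figure D3:**
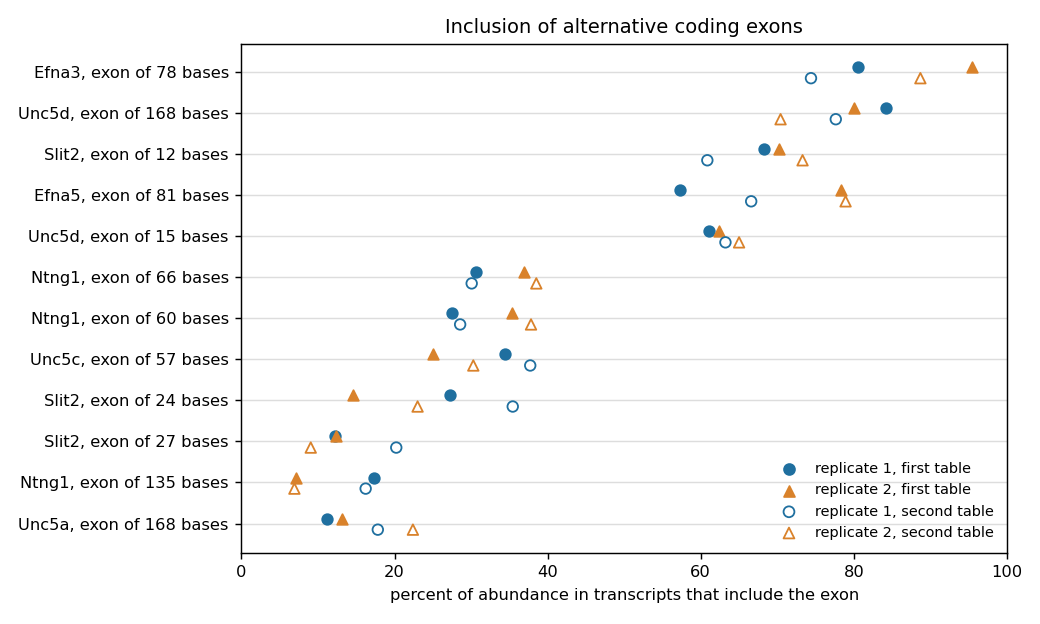
Percent of abundance in transcripts that include an alternative coding exon, against those that skip it, for 12 exons of 7 guidance genes; filled symbols are the first transcript table, open symbols the second, circles replicate 1 and triangles replicate 2. The Unc5d exon of 168 bases lies at 70.4% or above in all 4 values and the Unc5a exon of the same length at 22.4% or below.

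Over all guidance genes at TPM 1, 24 of 36 (66.7%) had a transcript with over 50% of the gene in both libraries, against 66.1% of 12944 protein-coding genes, a share near the background. Epha8, Efna1, Efna2, Efnb1 and Efnb3 had a transcript over 90% in both libraries, although by the second table Efna1-201 took 83.9% and 51.05% and Efnb1-201 78.2% and 73.3%, and 10 genes had none over 50% in either. By the mean over the libraries, both tables put the same transcript in front for 30 of the 36.

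The difference between the libraries was measured for the 37 genes that had at least 10 counts in either library, as log2 CPM (counts scaled to library size) in replicate 2 minus replicate 1. The difference between the libraries had a median of -0.07, against 0.00027 over all 18941 genes measured, and was positive for 17 and negative for 20. Past 1.5-fold, 5 of 37 genes (13.5%) were higher in replicate 2, against 4.36% of all genes measured, and 3 (8.11%) were lower, against 6.56%. Among genes with at least 100 counts, 5 of 34 (14.7%) were higher and 2 (5.88%) lower, against 1.17% and 2.29% of 12867 genes. The 95% counting interval left out 0 for 25 of 37 (67.6%), against 28.5% of all genes measured. That interval covers counting error only and is narrower at higher counts. At least 100 counts were reached by 34 of the 37 genes, against 12867 of the 18941. The 67.6% and 28.5% are therefore shares at unlike depth, and no share matched for depth was computed.

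The 5 higher genes were Robo3, Efna5, Ephb3, Epha4 and Ephb2. Robo3 had 1177 counts in replicate 1 and 2201 in replicate 2, a log2 difference of 0.80 (counting interval 0.70 to 0.91). Efna5 had 743 and 1329 counts (0.74, 0.61 to 0.87). On the TPM scale the difference of Efna5 was 0.38, since the mean length of its transcripts was put at 2585 nt in replicate 1 and 3299 nt in replicate 2. Its 2 transcripts are of 4032 nt (Efna5-201) and 643 nt (Efna5-202), and the longer took a larger share in replicate 2. Epha4 had 6884 and 11334 counts (0.62, 0.58 to 0.67), and 0.58 on the TPM scale, just short of 1.5-fold. Ephb3 had 733 and 1254 counts (0.68, 0.54 to 0.81) and Ephb2 892 and 1465 (0.62, 0.50 to 0.74). Ephb6 lay just inside the threshold at 0.57. Of the 5 EphB genes 4 had positive differences, but the counting interval of Ephb4 (0.13, -0.15 to 0.41) included 0.

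The lower genes were Efnb3, Ntn1 and Epha1. Efnb3 had 3034 counts in replicate 1 and 2046 in replicate 2 (-0.67, -0.75 to -0.59). Ntn1 had 609 and 375 counts (-0.79, -0.99 to -0.61). For Epha1 the difference of -1.49 rests on 14 and 4 counts, with an interval of -3.97 to -0.23. Ntng1 at -0.57 and Slit1 at -0.47 were next in order, and on the TPM scale Ntng1 was at -0.62, so that 3 genes were past 1.5-fold higher and 4 lower on that scale. All 3 ephrin-Bs had negative differences (median -0.33), but the counting interval of Efnb1 (-0.08, -0.29 to 0.13) included 0. Between the same libraries, markers of other regions, layers and myelinating oligodendrocytes differed as given above, with all 10 striatal markers lower in replicate 2 (median -1.95). The part of these marker differences in the differences of guidance genes was not tested.

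**Figure D4:**
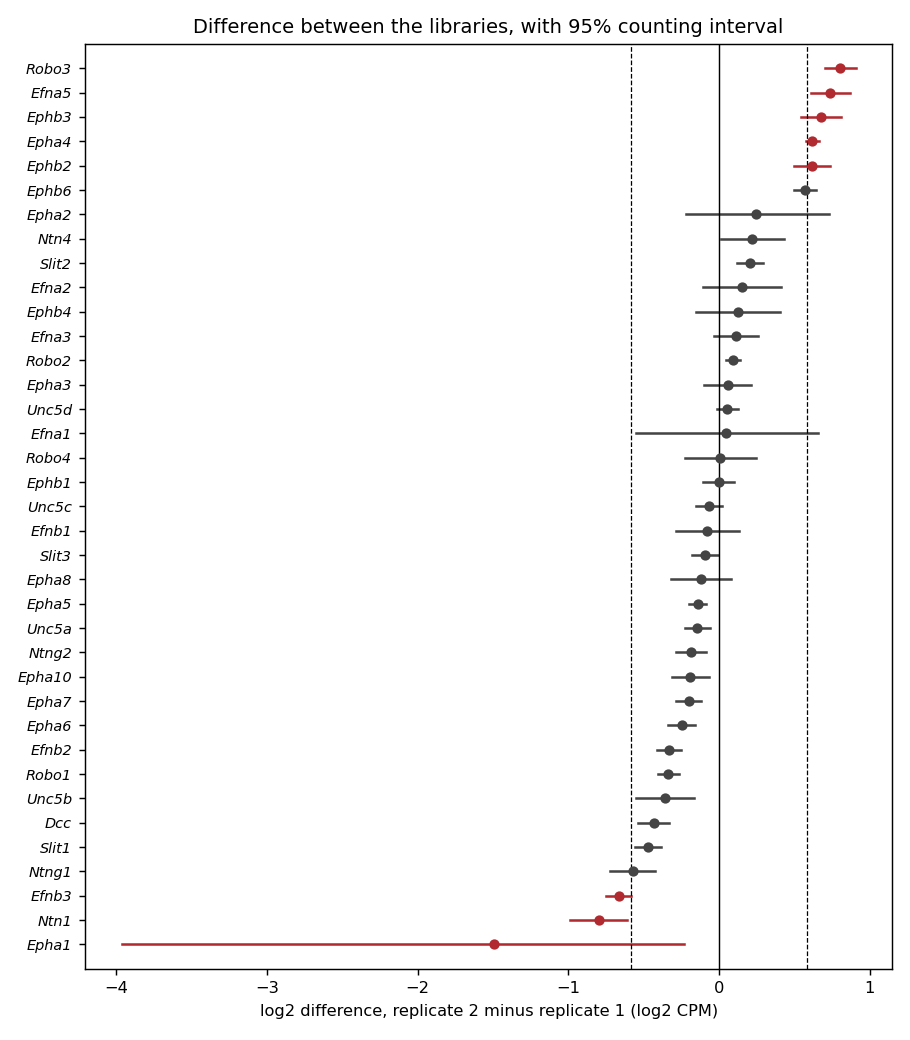
Log2 difference, replicate 2 minus replicate 1, of the 37 guidance genes measured, with bars for the 95% counting interval; dashed lines mark 1.5-fold and red points lie beyond them. Robo3, Efna5, Ephb3, Epha4 and Ephb2 lie beyond the right line, Efnb3, Ntn1 and Epha1 beyond the left one, and the bar of Epha1 spans -3.97 to -0.23.

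A list of 49 genes that act with these cues, such as exchange factors, adaptors, proteases and other receptors and ligands, was examined beside them. Of 48 measured, 46 reached TPM 1 in both libraries, 26 had positive and 22 negative differences, and the median was 0.03. None was past 1.5-fold higher in replicate 2, against 4.36% of all genes measured, and 2 were lower (3 by the second table), against 6.56%. These are shares at unlike depth, since all measured partners but Draxin and Ntn5 had at least 100 counts in a library. Of all genes with at least 100 counts, 1.17% were higher and 2.29% lower. Srgap1, a GTPase-activating protein that binds Robo, had 7.86 and 4.57 TPM (-0.63), and Draxin, a secreted Dcc ligand, 0.47 and 0.21 TPM (-1.09, 46 and 22 counts). The highest partner was Chn1, the Rac-inactivating chimaerin that acts below Epha4, at 500 and 591 TPM. Nell2, the Robo3 ligand, followed at 245 and 273 TPM, then Kalrn, an exchange factor of dendritic spines, at 186 and 225 TPM. Lrrc4b, the member of the NGL family that binds LAR-type phosphatases, had 135 and 122 TPM. Ngef, the exchange factor ephexin that binds Epha4, had 126 and 126 TPM, and Srgap3 94.9 and 101 TPM.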

How the data were processed

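Gene and transcript tables of 2 total RNA libraries were used. Per the file headers, they were made on mm10 with GENCODE M21; their column names are those of RSEM (gene table and first transcript table) and kallisto (second transcript table). No aligner, version or use of strand is named in the sources used here, so overlapping and antisense genes may share reads. The authors deposited expected counts (estimated reads, not normalized), TPM (relative to all entries of a file), FPKM (order check) and, for transcripts, the percent of the gene's abundance. All 55536 genes matched the annotation; 26345 entries naming no gene (26248 named by a number, the rest spike-ins and phiX) held 0.404% and 0.387% of counts and were left out.

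Expected counts were rounded, and log2 CPM was computed in edgeR 4.0.16 (R 4.3.3) with TMM normalization and prior count 2; these steps were tested on simulated data. Size factors of DESeq2 1.42.0 served as an alternative. Tables were joined in Python 3.11.15, pandas 2.3.3 and scipy 1.17.1. A count of 0 allows 3 counts, 0.106 and 0.0972 CPM. Intervals (95%, exact Clopper-Pearson) and floors cover counting error only. A ratio has a direction only if its sign is shared by the libraries and its mean is larger than its SD; ratios within pairs used TPM + 0.1. A share of an exon is the summed percent of transcripts that include it over those that include or skip it.

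Named by rule were all members, members past 1.5-fold, members at TPM 1 whose leading transcript is noncoding, under 50%, over 90% or differs between tables, and partners past 1.5-fold or among the 6 highest. The genes, lists and rules were chosen with earlier results of these data known. Protein sequences were not used here.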

Additional observations from a re-analysis of the deposited data

How the results depend on the processing

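No paired analysis was possible because both libraries belong to 1 group. With log2(TPM + 0.1) in place of log2 CPM, the median difference of the guidance genes was -0.016, 3 genes were past 1.5-fold higher (without Epha4 and Efna5) and 4 lower (with Ntng1); the other counts past 1.5-fold stayed within 1.5 times of those reported. Receptors over ligands for EphA were 2.36 by the second transcript table and 3.34 on expected counts not divided by length, for Dcc and Unc5 2.75 and 3.47, and for Robo 1.01 on such counts. For EphB the ratio without replicate 2 was -0.17 and without replicate 1 0.76. Leaving out each library gave 2.37 to 2.42 (EphA), 1.11 to 1.36 (Robo), 2.89 to 3.00 (Dcc and Unc5), 36 genes at TPM 1 and 25 genes with a transcript over 50%. With a threshold of 75%, 14 genes had such a transcript. On counts not divided by length, Efna5 over Efna3 (0.36), Efnb3 over Efnb2 (-0.10) and Unc5a over Unc5d (-0.50) turned round, an effect of leaving transcript length out, and Slit3 and Slit1 over Slit2 went to 0.00061 and 0.0051. The same counts gave 1.37 for Epha5 over Epha6, 1.41 for Ephb6 over Ephb2, -1.13 for Ntng1 over Ntng2 and 0.30 for Ntn1 over Ntn4. By the second table Efnb3 over Efnb2 was 0.09, Slit1 over Slit2 0.20 and Ntn1 over Ntn4 -0.11. The second table moved no gene by more than 2 places in the order of levels. Genes under 100 counts (Epha1, Epha2, Efna1, Efna4) and shares of transcripts in low genes are limited by depth.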

Other observations

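The second transcript table gave higher TPM than the gene table throughout, with a median ratio of 1.55 over protein-coding genes at TPM 1, and 33 of the 38 guidance genes had a ratio between 1.3 and 1.7. Epha2 was farthest from this, with 3.74 times its level in the gene table. Ntn1 followed at 1.97, Efna4 at 1.85, Ephb6 at 1.82 and Robo1 at 1.81. In Ephb6 the second table placed 15.01% and 15.4% of the gene in Ephb6-202, a transcript of 665 nt that the first table listed at 0 in both libraries. Levels of these 5 genes lay farther from the median ratio than those of the other guidance genes.

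Within families, Ephb6 held 55.2% and 56.2% of the summed EphB level and Efna2 12.8% and 12.8% of the summed ephrin-A level, so that these shares hardly differed between libraries whose family sums did. Ntn1 held 50.3% and 33.0% of the summed level of Ntn1 and Ntn4, the widest change of a share within any family.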
